A study of Mus musculus with 4 samples.

Results

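The genes described here are 40 mouse genes of mitosis and the spindle, a list fixed by name that runs from the mitotic cyclins to the proteins that divide the cell. Each symbol was matched to its Ensembl identifier among the 39179 identifiers with counts. All 40 had 1 identifier, and all 40 were among the 11702 genes with enough counts to be tested. Their levels were read in T follicular helper (Tfh) cells, the CD4 T cells that help B cells in germinal centres, and in activated CD4 T cells of the same antigen receptor that were not Tfh cells (non-Tfh). All cells came from OT-II mice, whose T cells carry a transgenic receptor for ovalbumin, and were of the C57BL/6 background. They were transferred into C57BL/6 hosts, which were immunised under the skin with ovalbumin carrying nitrophenol. On day 8 the Thy-1.1+ donor cells with high CD44 were sorted from pooled inguinal nodes, the Tfh cells as CXCR5+ PD-1+ and the non-Tfh cells as CXCR5- PD-1-. Each group had 2 libraries of total RNA, numbered T32 and T53 in both groups. What the numbers stand for is not in the labels, nor is any separate animal or pool behind each library. The p-values therefore cover the spread among these samples, which may be technical. Levels are CPM, counts divided by TMM-scaled library totals and set to a common total (TMM, trimmed mean of M-values), unless stated otherwise.

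A dividing cell enters mitosis when cyclins switch on the kinase Cdk1. Kinetochores on the centromeres then attach the chromosomes to spindle microtubules, and the spindle checkpoint holds the cell until all are attached. The anaphase-promoting complex (APC/C) then marks cyclins and securin for destruction, sisters separate, and a contractile ring divides the cell. Most of these genes are transcribed mainly in G2 and M phase, and in resting lymphocytes they are nearly silent, so that their RNA in a lymph node T cell is widely read as a mark of division. Their promoters often hold a cell cycle genes homology region (CHR), with the core letters TTTGAA or TTCGAA, and CCAAT boxes. In resting cells the DREAM complex, which contains E2f4 and the pocket proteins Rbl1 (p107) or Rbl2 (p130), sits at the CHR, and in cycling cells Mybl2 (B-Myb) and Foxm1 take its place. The factor NF-Y binds CCAAT.

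The promoter windows of 5 members are shown because these letters are what many members share and the choice of the list did not use them. They are the 4 members of highest level per kb of exon whose window holds CHR letters, Mki67 (chr7:135716330-135716629, minus strand), Top2a (chr11:99024140-99024439, minus strand), Ccnb2 (chr9:70421505-70421804, minus strand) and Cdc20 (chr4:118437294-118437593, minus strand). The last, Nusap1 (chr2:119618048-119618347, plus strand), has the highest level among those that hold neither CHR form. Each window runs 5′ to 3′ along the gene's strand, from 250 bases before the RefSeq start to 50 bases after it (GRCm38.p6), and capitals mark CHR letters (TTTGAA, read as TTCAAA from the other strand, or its palindromic form TTCGAA) and CCAAT letters (read as ATTGG from the other strand).
Mki67: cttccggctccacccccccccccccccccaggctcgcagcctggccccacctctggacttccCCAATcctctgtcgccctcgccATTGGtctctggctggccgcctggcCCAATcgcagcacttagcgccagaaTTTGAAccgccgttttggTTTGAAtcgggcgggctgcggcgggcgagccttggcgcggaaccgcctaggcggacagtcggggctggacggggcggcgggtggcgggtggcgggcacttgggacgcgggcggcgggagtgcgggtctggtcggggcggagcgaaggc
Top2a: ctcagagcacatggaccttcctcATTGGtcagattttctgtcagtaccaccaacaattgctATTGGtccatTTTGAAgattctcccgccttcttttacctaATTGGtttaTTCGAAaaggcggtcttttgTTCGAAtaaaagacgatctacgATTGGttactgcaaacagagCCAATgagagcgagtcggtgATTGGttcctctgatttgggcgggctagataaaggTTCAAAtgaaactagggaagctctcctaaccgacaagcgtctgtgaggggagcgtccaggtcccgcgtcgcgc
Ccnb2: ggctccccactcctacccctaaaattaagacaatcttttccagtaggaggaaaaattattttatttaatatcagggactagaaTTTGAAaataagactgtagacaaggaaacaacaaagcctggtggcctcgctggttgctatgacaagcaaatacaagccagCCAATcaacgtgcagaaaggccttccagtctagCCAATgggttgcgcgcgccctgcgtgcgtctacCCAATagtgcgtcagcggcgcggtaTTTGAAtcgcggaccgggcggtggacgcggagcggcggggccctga
Cdc20: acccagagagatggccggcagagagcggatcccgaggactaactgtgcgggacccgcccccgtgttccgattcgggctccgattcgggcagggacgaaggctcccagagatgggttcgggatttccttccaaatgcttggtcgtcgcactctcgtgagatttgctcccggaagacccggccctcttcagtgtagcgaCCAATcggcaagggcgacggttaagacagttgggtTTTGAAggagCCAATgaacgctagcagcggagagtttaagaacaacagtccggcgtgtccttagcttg
Nusap1: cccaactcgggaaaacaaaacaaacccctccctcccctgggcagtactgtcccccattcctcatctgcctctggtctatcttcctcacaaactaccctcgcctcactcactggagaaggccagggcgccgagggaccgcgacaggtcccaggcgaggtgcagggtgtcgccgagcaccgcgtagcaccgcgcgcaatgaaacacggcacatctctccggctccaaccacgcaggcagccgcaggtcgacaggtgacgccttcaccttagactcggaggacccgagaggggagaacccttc

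In Cdc20, CHR letters began 18 bases before the start, with CCAAT letters beginning 53 and 8 bases before it. In Ccnb2, CCAAT letters began 87, 54 and 21 bases before the start, and CHR letters began 5 bases after it and 167 bases before it. The CHR letters of Mki67 began 116 and 98 bases before the start, and Top2a held 4 CHR matches and 6 CCAAT matches. The Nusap1 window held none of the letters.

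RefSeq windows were found for 34 of the 40 members, and Ccna2, Cdc25c, Aurkb, Incenp, Tpx2 and Kif20a had no entry. CHR letters on either strand lay in the window of 28 of these 34 genes (82.4%), against 16.4% of the 8742 tested genes with a window and 21.7% of all 27025 genes with one. CCAAT on either strand lay in 26 of 34 (76.5%), against 43.5% and 41.1%. Both lay in 1 window in 24 of 34 (70.6%), against 7.01% and 8.61%. In the last 150 bases of the window, the CHR share was 79.4% of members, against 6.71% of tested genes. The CHR match nearest the start of a gene began at a median of 6 bases after it, between 103 before and 41 after, and the nearest CCAAT match at a median of 29 bases before it. CHR and CCAAT matches overlapped at 1 place. The windows of Ccnb1, Mad2l1, Birc5, Cenpe, Nuf2 and Nusap1 held no CHR letters. A match describes the letters and is not a bound site.

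**Figure D1:**
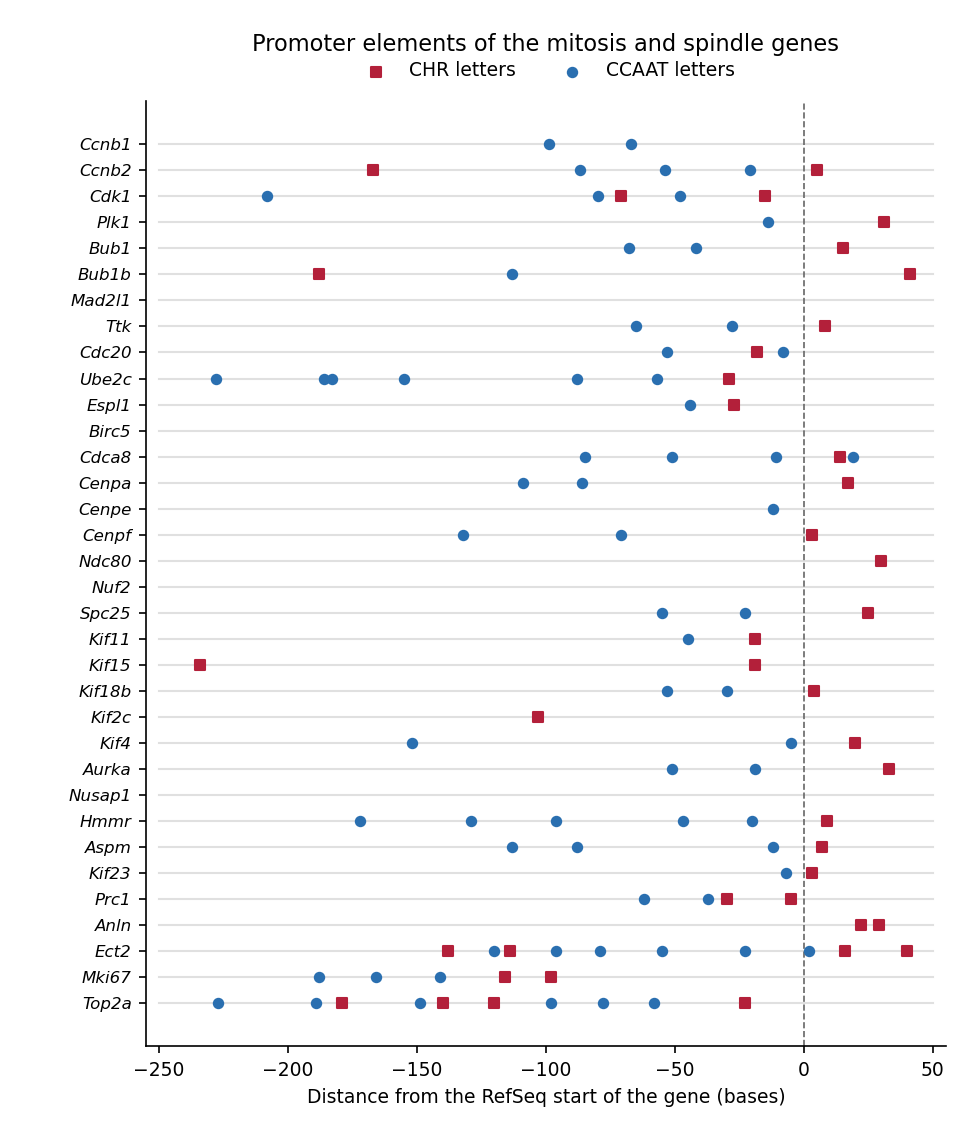
Positions of CHR letters (squares) and CCAAT letters (circles), in bases from the RefSeq start, in the windows of the 34 members with an entry, 1 row per gene in order of role. Most squares lie close to the dashed line at the start, with the circles mostly to its left.

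The Tfh libraries held 12354113 (T32) and 5725358 (T53) counts and the non-Tfh libraries 13360563 (T32) and 8636056 (T53), so 1 count was worth 0.0745 to 0.175 CPM. Non-Tfh T53 was neither the deepest nor the shallowest. The genes of the sorting receptors followed the gates. Cxcr5 had 747 and 712 CPM in Tfh cells, against 52.6 and 56.0 CPM in non-Tfh cells. The 6 T cell markers summed to 3370 and 3340 CPM in Tfh libraries, against 2940 and 2920 CPM in non-Tfh libraries. The non-Tfh T53 library stood apart in the mitosis genes, being the lowest of the 4 libraries in all 40, which held for 27.2% of all genes tested. The comparison of the groups is therefore also given without it.

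No mitosis or spindle gene passed the test between Tfh and non-Tfh cells. Their RNA was at similar levels in Tfh T32, Tfh T53 and non-Tfh T32 and lower in non-Tfh T53. Summed over the 40 genes, the level was 1513 and 1937 CPM in Tfh T32 and T53, against 1735 and 916 CPM in non-Tfh T32 and T53. The highest single library was Tfh T53 in 26 genes, non-Tfh T32 in 12 and Tfh T32 in 2. In bulk RNA, fewer dividing cells and less of the RNA per dividing cell cannot be told apart.

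Of the 40 genes, 0 had an adjusted p of 0.05 or less by edgeR's quasi-likelihood test, Benjamini-Hochberg adjusted over the 11702 genes tested, of which 8.49% had one. Kif18b was the 1 gene of the 40 with an unadjusted p under 0.05, which 22.0% of all genes tested had. DESeq2 called 1 gene, Kif18b, and limma-voom called 0, against 1139 and 900 of all 11702 genes tested. The log2 fold change, Tfh over non-Tfh, was positive in 36 genes and ran from -0.12 in Ccna2 to 1.14 in Kif18b, with a median of 0.41, while that of all genes tested was -0.01 with 49.3% positive. The median SE was 0.363 for these genes and 0.179 for all genes tested. Without non-Tfh T53, 0 genes were called, 19 of 40 were positive and the median was -0.01. Without non-Tfh T32, 13 were called, all higher in Tfh cells, as were 3.83% of the 11846 genes tested in that fit. There all 40 were positive and the median was 1.03. Those 13 were Bub1b, Cdk1, Kif15, Kif18b, Kif20a, Kif23, Kif2c, Nusap1, Plk1, Prc1, Spc25, Top2a and Ube2c, and that fit assumes that the lone non-Tfh library varies as the Tfh pair does. Without Tfh T32 or Tfh T53 no member was called, and the median was 0.58 and 0.23.

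**Figure D2:**
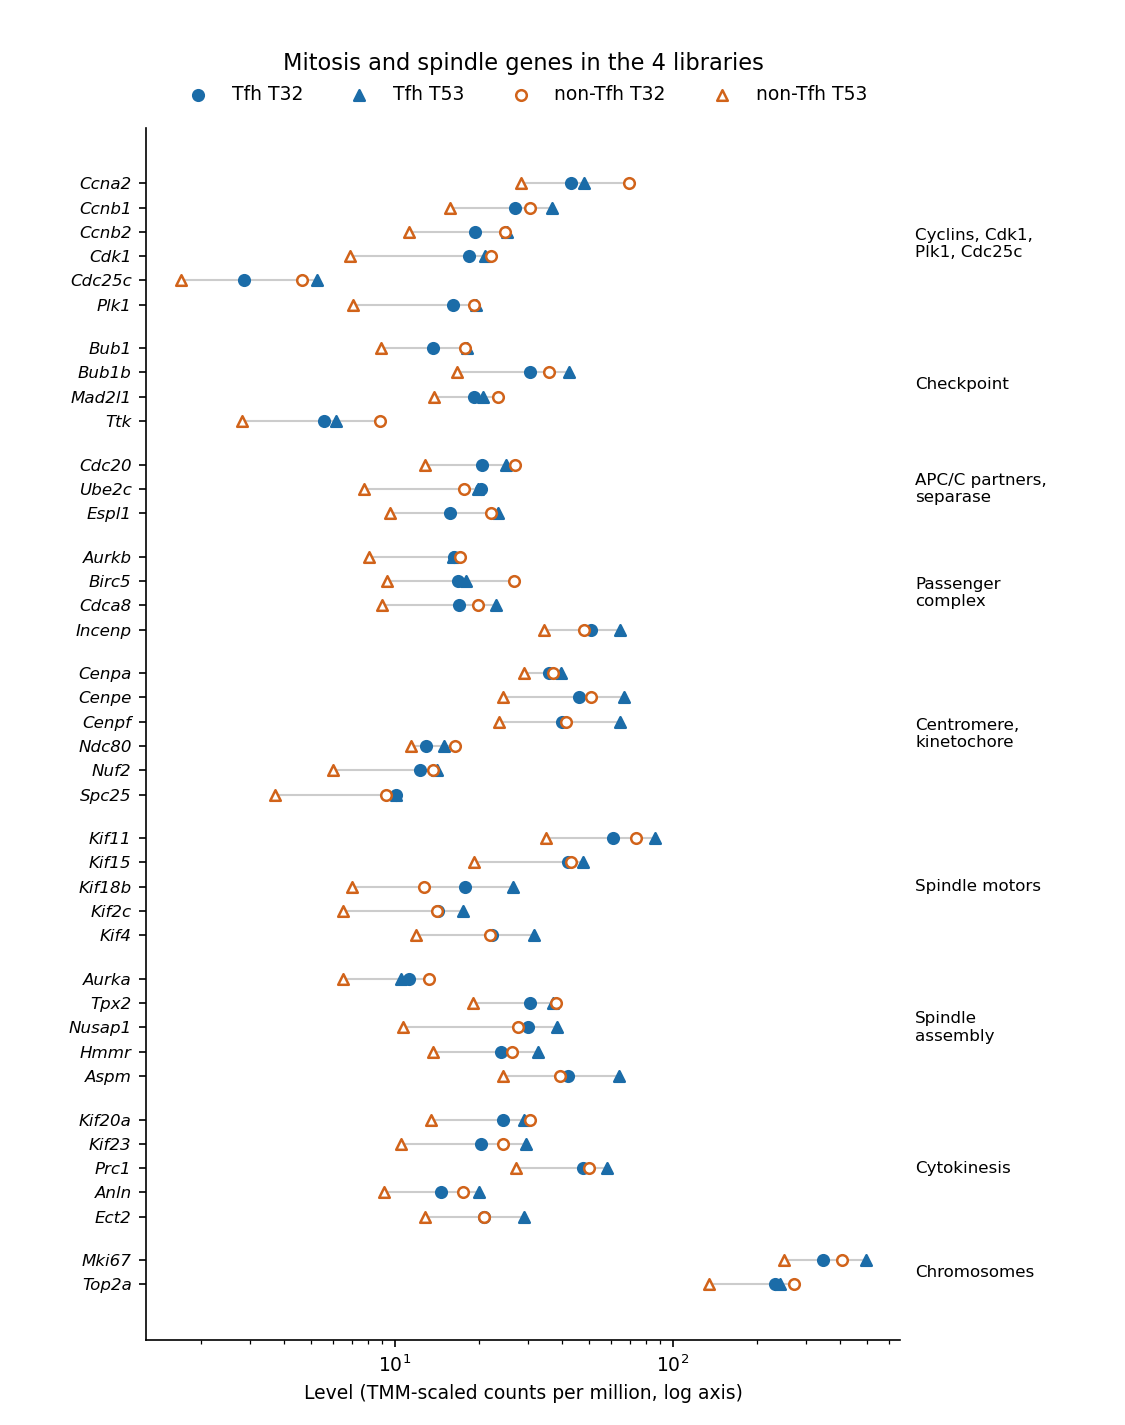
Level of each of the 40 genes in CPM on a log axis, 1 row per gene grouped by role, with filled symbols for Tfh and open symbols for non-Tfh libraries, circles for T32 and triangles for T53. The open triangle of non-Tfh T53 is the leftmost symbol in all 40 rows.

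The cyclins, Cdk1 and its activators, 6 genes, had log2 fold changes from -0.12 to 0.43. Ccna2, cyclin A2, which acts in S phase and at the start of mitosis, had 43.0 and 47.7 CPM in Tfh T32 and T53, against 69.2 and 28.3 CPM in non-Tfh T32 and T53. Both Tfh libraries lay between the non-Tfh libraries, and the log2 fold change of -0.12 ± 0.422 (SE, n = 2 each) was the lowest of the 40 (edgeR adjusted p = 0.912). Ccnb2, a B-type cyclin that activates Cdk1, had 19.4 and 25.2 CPM in Tfh cells, against 24.8 and 11.2 CPM in non-Tfh cells. Tfh T53 and non-Tfh T32 were nearly level, and the groups overlapped. Cdk1, the kinase that drives entry into mitosis (GRCm38 chromosome 10, 69335146 to 69352938, minus strand), had 18.4 and 21.0 CPM in Tfh cells, against 22.2 and 6.86 CPM in non-Tfh cells. The non-Tfh pair differed more in Cdk1 than in any other member, 3.24-fold from 298 and 61 counts (exact 95% interval 2.45 to 4.34). Its log2 fold change was 0.40 ± 0.535 (edgeR adjusted p = 0.744). Intervals of this kind, here and below, cover counting error only and compare libraries, not conditions. Ccnb1, the polo-like kinase Plk1 and the phosphatase Cdc25c, which removes the inhibitory phosphates of Cdk1, had log2 fold changes of 0.43, 0.41 and 0.27. Cdc25c was the lowest member per kb of exon.

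The 4 spindle checkpoint genes had log2 fold changes from -0.03 to 0.45. Bub1b, which encodes the checkpoint protein BubR1, had 30.7 and 42.4 CPM in Tfh cells, against 35.7 and 16.7 CPM in non-Tfh cells. Bub1, a kinase of the outer kinetochore, had 13.7 and 18.2 CPM in Tfh cells, against 17.8 and 8.88 CPM in non-Tfh cells. In both genes non-Tfh T32 lay between the Tfh libraries. Ttk, the Mps1 kinase that starts checkpoint signalling, had 5.53 and 6.11 CPM in Tfh cells, against 8.79 and 2.81 CPM in non-Tfh cells. Here the Tfh libraries lay between the non-Tfh ones, which differed 3.13-fold (exact 95% interval 2.02 to 5.03). The log2 fold change of Ttk was -0.03 ± 0.515 (edgeR adjusted p = 0.982), and that of Mad2l1, the Mad2 protein that blocks the APC/C, was 0.08.

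Of the genes that open anaphase, Cdc20, an activator of the APC/C, had 20.6 and 25 CPM in Tfh cells, against 27.0 and 12.8 CPM in non-Tfh cells. Ube2c, the ubiquitin-conjugating enzyme that works with the APC/C, had 20.4 and 19.9 CPM in Tfh cells, against 17.7 and 7.76 CPM in non-Tfh cells. The Tfh libraries of Ube2c lay above both non-Tfh libraries, and those of Cdc20 between them. Neither gene passed the test, with log2 fold changes of 0.64 ± 0.369 for Ube2c and 0.17 ± 0.358 for Cdc20. Espl1, separase, which cuts the cohesin that holds sisters together, had a log2 fold change of 0.26.

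The chromosomal passenger complex corrects wrong attachments through its kinase Aurkb. Its scaffold Incenp had 50.5 and 64.6 CPM in Tfh cells, against 47.7 and 34.4 CPM in non-Tfh cells. The groups did not overlap in Incenp, and its log2 fold change of 0.47 ± 0.204 did not pass (edgeR adjusted p = 0.244). Birc5, survivin, had 16.8 and 18 CPM in Tfh cells, against 26.9 and 9.33 CPM in non-Tfh cells. Both Tfh libraries lay between the non-Tfh ones, and the log2 fold change was -0.08 ± 0.495. Aurkb and Cdca8, borealin, had log2 fold changes of 0.34 and 0.44. None of the 4 genes of this complex passed the test. The negative log2 fold change of Birc5 was smaller in size than its SE. Non-Tfh T32 was above non-Tfh T53 in all 4 genes.

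At the centromere, Cenpa, the histone H3 variant that marks centromeres, had 35.8 and 39.5 CPM in Tfh cells, against 37.1 and 29.2 CPM in non-Tfh cells. Cenpa had the smallest fold between the non-Tfh libraries, 1.27 (exact 95% interval 1.09 to 1.48). Cenpe, the kinetochore motor that aligns chromosomes, had 45.8 and 66.9 CPM in Tfh cells, against 50.9 and 24.5 CPM in non-Tfh cells. Non-Tfh T32 lay between the Tfh libraries in both genes. The kinetochore genes Cenpf, Ndc80, Nuf2 and Spc25 had log2 fold changes of 0.66 ± 0.348, -0.01 ± 0.234, 0.40 ± 0.385 and 0.62 ± 0.416. Ndc80, Nuf2 and Spc25 encode subunits of 1 complex that binds microtubules, and differences among them were not tested.

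The 5 spindle motors had log2 fold changes from 0.41 to 1.14. Kif18b, a kinesin that works on the plus ends of astral microtubules (GRCm38 chromosome 11, 102905529 to 102925124, minus strand), had 17.8 and 26.5 CPM in Tfh cells, against 12.7 and 6.97 CPM in non-Tfh cells. Both Tfh libraries lay above both non-Tfh libraries. Its log2 fold change of 1.14 ± 0.335 was the highest of the 40. It did not pass in edgeR (unadjusted p = 0.0144, edgeR adjusted p = 0.106), and DESeq2 gave an adjusted p of 0.0391. Leaving out 1 library at a time gave edgeR log2 fold changes from 0.79 to 1.65 for Kif18b, with adjusted p values from 0.0291 (without non-Tfh T32) to 0.381 (without Tfh T53). Over all alternatives its adjusted p ran from 1.05e-05 (no count filter) to 0.381. Kif11, the motor that pushes spindle poles apart, had 60.8 and 85.9 CPM in Tfh cells, against 73.8 and 35.0 CPM in non-Tfh cells. Non-Tfh T32 lay between the Tfh libraries. Kif15, which helps Kif11 keep the spindle bipolar, the microtubule depolymerase Kif2c and the chromosome-bound kinesin Kif4 had log2 fold changes of 0.51, 0.59 and 0.64.

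Among spindle assembly factors, Nusap1, which bundles microtubules near chromosomes, had 30.2 and 38.3 CPM in Tfh cells, against 27.8 and 10.7 CPM in non-Tfh cells. Aspm, a spindle pole protein, had 41.9 and 63.8 CPM in Tfh cells, against 39.2 and 24.4 CPM in non-Tfh cells. In both genes the Tfh libraries lay above both non-Tfh libraries, with Tfh T32 close to non-Tfh T32. The log2 fold changes of 0.80 ± 0.453 for Nusap1 and 0.71 ± 0.297 for Aspm did not pass (edgeR adjusted p = 0.402 and 0.245). Tpx2, which activates the kinase Aurka on the spindle, had 30.5 and 37.0 CPM in Tfh cells, against 37.8 and 19.1 CPM in non-Tfh cells, with the Tfh libraries between the others. Aurka and the hyaluronan receptor Hmmr, which also binds the spindle, had log2 fold changes of 0.11 and 0.48.

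Of the 5 cytokinesis genes, Prc1, which bundles the central spindle, had 47.5 and 57.8 CPM in Tfh cells, against 49.8 and 27.3 CPM in non-Tfh cells. Kif20a, a motor of the central spindle, had 24.5 and 29.2 CPM in Tfh cells, against 30.7 and 13.5 CPM in non-Tfh cells. Non-Tfh T32 lay between the Tfh libraries in Prc1 and above them in Kif20a. The other 3, Kif23, the ring scaffold anillin (Anln) and the RhoA activator Ect2, had log2 fold changes from 0.34 to 0.54.

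Mki67 and Top2a had the highest levels of the 40 genes. Mki67, the Ki-67 protein that coats mitotic chromosomes and is the usual marker of dividing cells (GRCm38 chromosome 7, 135689784 to 135716361, minus strand), had 348 and 494 CPM in Tfh cells, against 406 and 251 CPM in non-Tfh cells. Top2a, the topoisomerase that untangles sister chromatids, had 232 and 243 CPM in Tfh cells, against 272 and 135 CPM in non-Tfh cells. In Mki67 non-Tfh T32 lay between the Tfh libraries and in Top2a above them. The log2 fold changes were 0.35 ± 0.279 and 0.22 ± 0.331 (edgeR adjusted p = 0.550 and 0.778). Per kb of exon, Mki67 averaged 37.3 CPM and Top2a 24.5 CPM over the 4 libraries, against 0.731 CPM for Cdc25c, and the median member ranked at the 39.1st percentile of 11560 genes by level per kb. Without Mki67 and Top2a, the members summed to 933 and 1199.8 CPM in Tfh cells, against 1057 and 529.8 CPM in non-Tfh cells.

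Both Tfh libraries were above both non-Tfh libraries in 9 of 40 members, or 22.5%, against 26.6% of all genes tested, a share near the background. These were Ube2c, Incenp, Spc25, Kif18b, Kif2c, Kif4, Nusap1, Aspm and Ect2. No member had both Tfh libraries below both non-Tfh ones, an order that 2997 of all 11702 genes tested had. That absence follows from non-Tfh T53 being the lowest library in all 40 and is no separate result. In 12 members (30.0%) both Tfh libraries lay above non-Tfh T53 and below non-Tfh T32, an order that 6.96% of all genes tested had. In the other 19, non-Tfh T32 lay between the Tfh libraries.

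Between the 2 non-Tfh libraries, all 40 genes were higher in T32 than in T53, by 1.27-fold (Cenpa) to 3.24-fold (Cdk1), with a median of 2.11. The difference was at least 2-fold in 25 of 40, against 3.13% of all genes tested. Between the Tfh libraries, T53 over T32 ran from 0.933 in Aurka to 1.84 in Cdc25c with a median of 1.25, and no gene reached 2-fold. Of all 11702 genes tested, 343 were at least 2-fold higher in Tfh T53 and 332 at least 2-fold lower. The order of the numbers was thus opposite in the groups. T53 was the higher Tfh library in 36 of 40 genes (90.0%), against 49.6% of all genes tested. It was the lower non-Tfh library in all 40, against 50.3% of all genes tested. With 1 library on each side these comparisons have no replicate check, and they describe libraries.

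Within T53, Tfh over non-Tfh was above 1 in all 40 genes, from 1.32 in Ndc80 to 3.81 in Kif18b (exact 95% interval 2.82 to 5.20), with a median of 2.34. Of all genes tested, 49.9% were above 1 within T53. The T53 ratio was at least 2-fold in 28 of 40, against 7.34% of all genes tested. Within T32, Tfh over non-Tfh was above 1 in 9 of 40 (22.5%), against 49.1% of all genes tested. It ran from 0.617 in Cdc25c to 1.40 in Kif18b, with a median of 0.857, and no member reached 2-fold in either direction. Of all 11702 genes tested, 595 were at least 2-fold higher and 602 at least 2-fold lower within T32. The T53 ratio and the ratio of the non-Tfh libraries share the non-Tfh T53 library. That library was the lowest in all 40 genes, so both ratios had to be above 1 in all 40. Kif18b had the highest ratio of the 40 within each number.

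**Figure D3:**
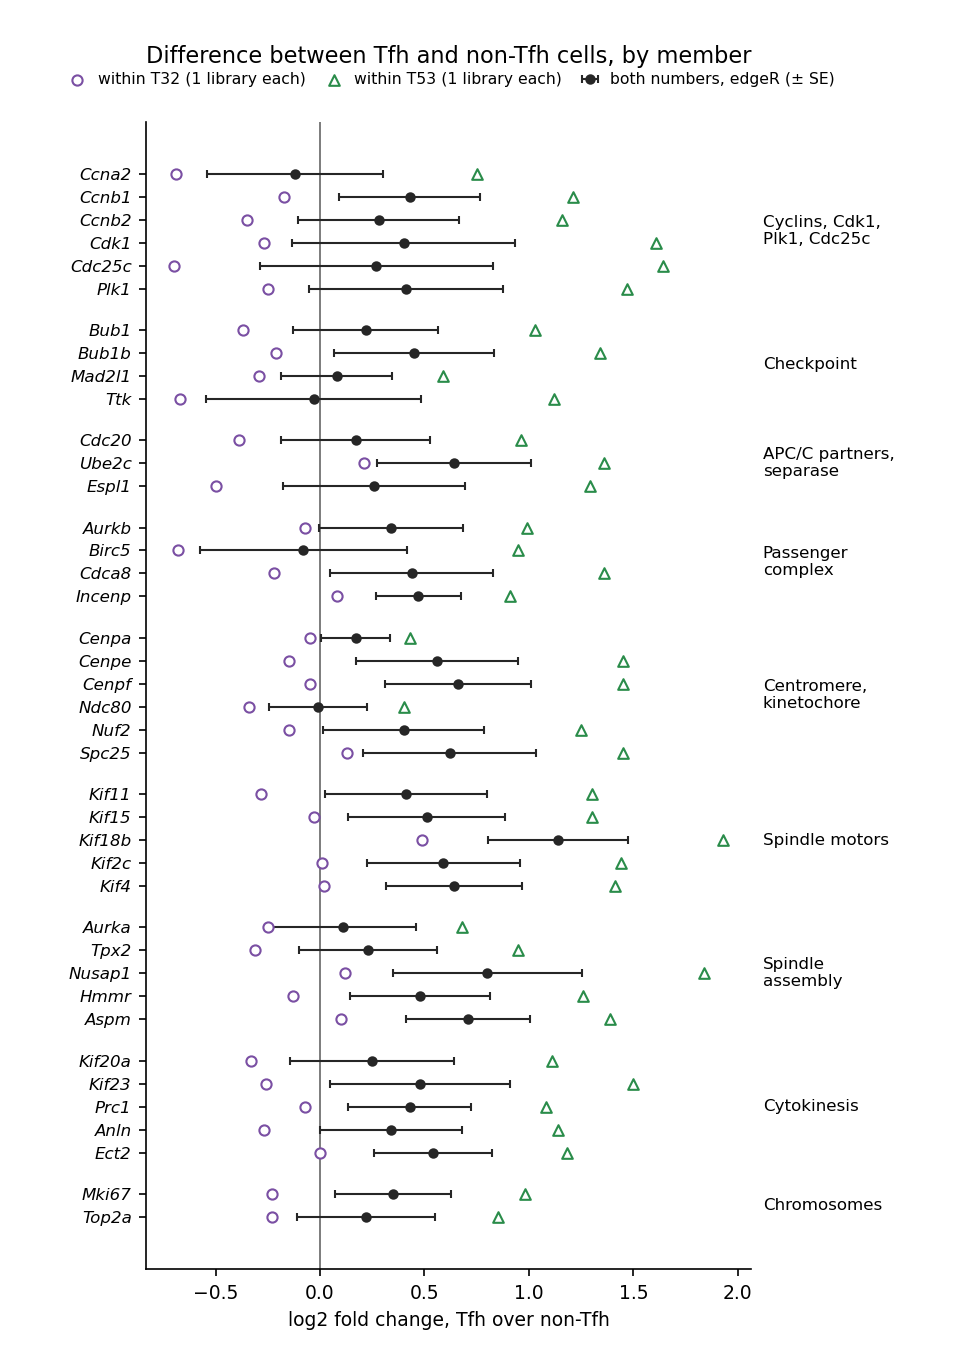
Log2 fold change, Tfh over non-Tfh, of each gene from the edgeR fit of all 4 libraries (filled circles, bars ± SE), with the log2 ratio within T32 (open circles) and within T53 (triangles), 1 library on each side. The triangles lie right of 0 in all 40 rows, and the open circles lie right of 0 in 9 of 40.

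**Figure D4:**
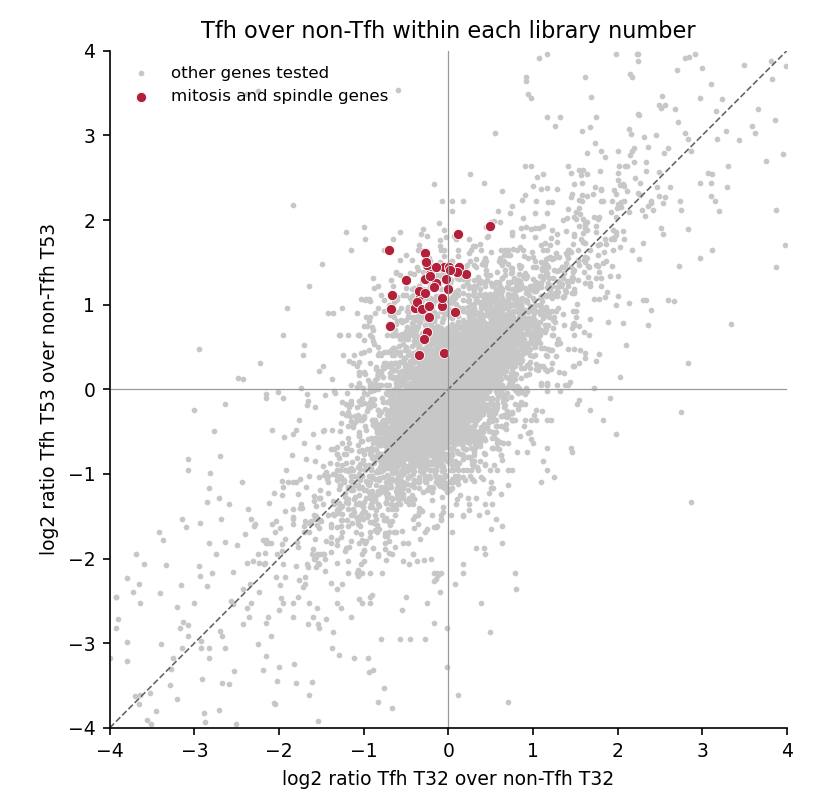
Log2 ratio of Tfh over non-Tfh within T53 (vertical) against that within T32 (horizontal) for the 40 genes (red) and the other genes tested (grey), with equality dashed; genes past 4 on either axis are not drawn. The red points form 1 cloud above the dashed line, with medians of -0.22 within T32 and 1.23 within T53.

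Members with and without CHR letters had similar values. The 28 members with CHR letters had a median fold, non-Tfh T32 over T53, of 2.08 (range 1.27 to 3.24), and the 6 whose window held none had 2.19 (range 1.70 to 2.88). The median log2 fold change, Tfh over non-Tfh, was 0.42 in both.

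The regulators of these promoters did not pass the test either. Foxm1, an activator of G2 and M genes, had 18.9 and 22.7 CPM in Tfh cells, against 19.7 and 10.8 CPM in non-Tfh cells (log2 fold change 0.43, edgeR adjusted p = 0.488). Mybl2, which joins the same promoters from S phase on, had 8.71 and 8.38 CPM in Tfh cells, against 17.3 and 5.62 CPM in non-Tfh cells (log2 fold change -0.44, edgeR adjusted p = 0.708). Foxm1 had the members' order of libraries, with non-Tfh T53 lowest, and in Mybl2 the Tfh libraries lay between the others. Leaving out non-Tfh T53, so that non-Tfh T32 was the only non-Tfh library, gave Mybl2 a log2 fold change of -1.01. E2f4 had 71.7 and 75.8 CPM in Tfh cells, against 63.2 and 57.2 CPM in non-Tfh cells. Rbl2 had 143 and 148 CPM in Tfh cells, against 181 and 165 CPM in non-Tfh cells. The groups did not overlap in either gene, and the log2 fold changes of 0.29 and -0.25 did not pass (edgeR adjusted p = 0.224 and 0.260). Such an order was common: both Tfh libraries lay above both non-Tfh libraries in 3111 of all 11702 genes tested and below both in 2997. Among the 25 regulators, they lay above in 7 and below in 4. Rb1 and Rbl1 had log2 fold changes of 0.19 and 0.05. Of 25 regulators tested, 0 passed in edgeR, 4 had an unadjusted p under 0.05 (22.0% of all genes tested had one), and DESeq2 and limma-voom called 0.

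A list of 100 other mitosis genes had the same order of libraries with smaller differences. Of these, 0 passed in edgeR, 6 had an unadjusted p under 0.05, a smaller share than the 22.0% of all genes tested, DESeq2 called 1 (Smc4) and limma-voom called 0, and the median log2 fold change was 0.16. Chosen after their values were seen, Fam83d, a spindle protein, had a log2 fold change of 1.64 ± 0.415 and the condensin subunit Smc4 one of -0.46 ± 0.126 (edgeR adjusted p = 0.0645 and 0.0824). Non-Tfh T53 was the lowest library in 73 of the 100, and non-Tfh T32 was above it in 86, at least 2-fold in 17. Of 38 DNA replication genes, which act in S phase, 0 passed in edgeR, 3 had an unadjusted p under 0.05, also a smaller share than 22.0%, DESeq2 called 1 (Mcm6) and limma-voom called 0. Their median log2 fold change was -0.10, with 14 positive. All 38 were higher in non-Tfh T32 than in non-Tfh T53, at least 2-fold in 10, and in 22 (57.9%) both Tfh libraries lay between them. The DNA replication genes therefore shared the order of the non-Tfh libraries with the mitosis genes. Their median log2 fold change had the other sign, but the difference between the lists was not tested. Within T32 the median log2 ratio was negative in both, -0.22 in the mitosis genes and -0.51 in the replication genes. Within T53 it was positive in both, 1.23 and 0.46. Without non-Tfh T53, 6 replication genes were called, all lower in Tfh cells, as were 3.56% of the 12210 genes tested in that fit. Without non-Tfh T32, 2 were called higher, against 3.83% of all genes, a share near the background.

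**Figure D5:**
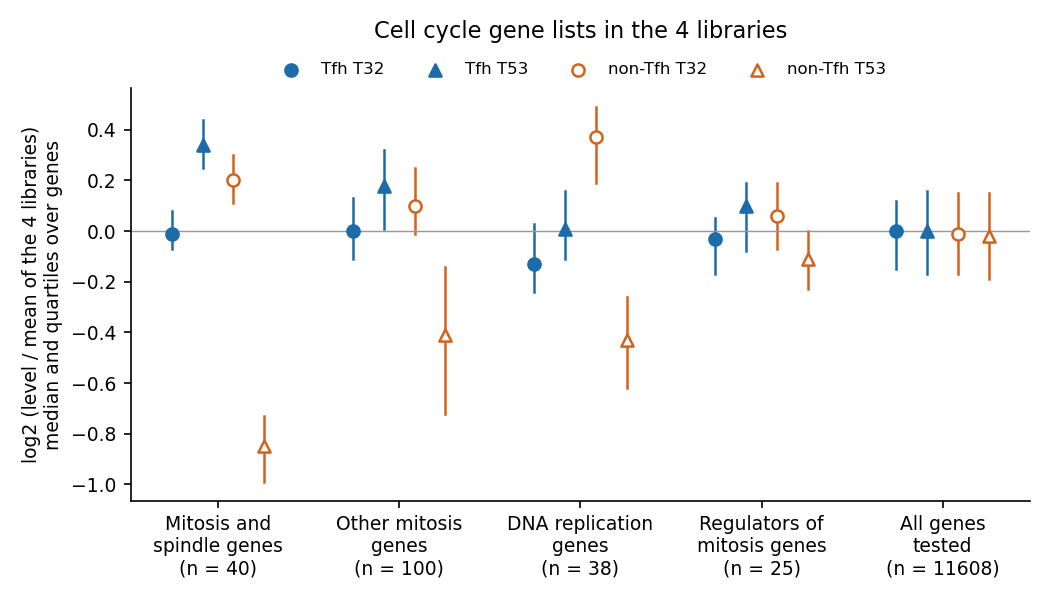
Median (symbols) and quartiles (bars) over the genes of each list of the log2 level relative to the mean of the 4 libraries, with filled symbols for Tfh and open symbols for non-Tfh libraries. The mitosis and spindle genes have medians of -0.01 and 0.34 in Tfh T32 and T53 and of 0.20 and -0.85 in non-Tfh T32 and T53, and the medians of all genes tested lie at about 0.

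Germinal centre B cells divide fast and touch Tfh cells, so their markers are given beside these results. The 5 germinal centre B cell markers summed to 2.01 and 3.67 CPM in Tfh T32 and T53, against 4.92 and 4.27 CPM in non-Tfh T32 and T53. Mef2b and Gcsam were at 0 in all 4 libraries, and 2 of the 5 were high enough to be tested. The 9 B cell markers summed to 145 and 141 CPM in Tfh cells, against 11.8 and 19.6 CPM in non-Tfh cells. Most of that was Cd22 in every library. Pax5, a transcription factor of B cells, had 5.11 and 5.24 CPM in Tfh cells, against 0 and 0.45 CPM in non-Tfh cells. The other 7 markers, Cd79a, Cd79b and Ms4a1 among them, were each at most 1.49 CPM in a library. At these low levels, non-Tfh T53 was the highest library in Cd79a, Ms4a1, Ebf1, Blk, Cr2 and Fcer2a, and non-Tfh T32 in Cd79b. The 12 macrophage and dendritic cell markers summed to 7.54 and 7.86 CPM in Tfh cells, against 5.66 and 13.7 CPM in non-Tfh cells, with Mertk, Clec9a and Siglech at 0. Non-Tfh T53 was the highest library in Lyz2, Csf1r, Adgre1, C1qa, Zbtb46, Xcr1 and Itgax, and not in Cd68 or Flt3. Lyz2 had 4.38 CPM there, against 0.149 CPM in non-Tfh T32. The 5 plasma cell markers summed to 4.27 and 3.84 CPM in Tfh cells, against 5.44 and 5.4 CPM in non-Tfh cells, and the 2 CD8 markers to 6.20 and 3.84 CPM against 4.32 and 3.60 CPM. The 5 granulocyte and 6 erythroid markers were at 0 in both Tfh libraries and in non-Tfh T32. In non-Tfh T53 they summed to 0.112 and 0.225 CPM. The 8 stromal and endothelial markers summed to 237 and 231 CPM in Tfh cells, against 212 and 229 CPM in non-Tfh cells, nearly all of it Pecam1. The part of other cells in the levels of the mitosis genes was not tested.

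Exon length moved with the differences between libraries of 1 group. Across the 40 genes, the Spearman correlation of exon length with Tfh T53 over Tfh T32 was 0.40, and with non-Tfh T32 over non-Tfh T53 it was -0.39. Across all 11467 genes with a ratio it was 0.24 and -0.29. With Tfh over non-Tfh within T32 and within T53 it was 0.06 and 0.00 across the 40 genes. These are descriptions across genes of the same libraries, which differ in depth, and the part of length in the results was not tested. Exons of Ccna2, Cdc25c, Cdc20, Cdca8, Kif4, Nusap1, Kif20a and Prc1 overlap those of a gene on the other strand that also had counts, and whether counting used strand is not given in the sources used here, so the values of these 8 genes are less certain.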

How the data were processed

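Total RNA was sequenced as stranded libraries, in read pairs, from 2 Tfh and 2 non-Tfh samples. The deposited values are unnormalised read counts, 1 per Ensembl gene. Per the submitters' processing notes, TopHat2, Bowtie2, HTSeq and GRCm38 (mm10) were used. Versions, annotation release and strand setting are not given in the sources used here. Symbols, positions and exon lengths came from GENCODE M21 on GRCm38, which matched 37607 of 39179 identifiers, and promoter windows from RefSeq. All 11702 genes kept by filterByExpr were fitted with edgeR 4.0.16 in R 4.3.3 (TMM scaling, robust quasi-likelihood, group only, 2 residual degrees of freedom, two-sided, Benjamini-Hochberg over all genes tested, threshold 0.05). The biological coefficient of variation was 0.156. Levels compared between genes were divided by the kb of merged exon. Letters were matched on both strands in Python 3.11.15, and intervals are exact 95% ones for the counts of 2 libraries.

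The members and lists were chosen with earlier results of these data known. Named members were the 2 highest per kb in each role, the 3 largest and 3 smallest log2 fold changes, the 3 largest folds within a group, and any called; Foxm1, Mybl2, E2f4, Rb1, Rbl1 and Rbl2 were named as regulators. The remaining members are given by their log2 fold changes or ranges. Some markers of B cell lists are not reported here and were left out of the sums. The fits were tested on counts simulated separately for each gene. That simulation had no shift of many genes together in 1 library, so it cannot speak to the order of libraries seen here. Alternatives tried were DESeq2 1.42.0, limma-voom (limma 3.58.1), RLE or upper-quartile factors, no count filter, at least 5 CPM in 2 libraries, no robust option, a replicate block, leaving out mitochondrial genes with the 10 most abundant, the last 150 bases of each promoter window, each library left out and, added after seeing the data, library totals without TMM.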

Additional observations from a re-analysis of the deposited data

How the results depend on the processing

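Precision was limited by 2 libraries a group, and the median SE of the members' log2 fold changes was 0.363. Counts went down to 15 in a library (Cdc25c in non-Tfh T53), but the SEs did not follow counts alone. The SE was 0.331 in Top2a, with at least 1203 counts in each library, and 0.164 in Cenpa, with at most 498. Members called numbered 0 in edgeR with RLE or upper-quartile scaling, without the robust option, without mitochondrial genes and the 10 most abundant, at 5 CPM in 2 libraries (39 members left) and in limma-voom. They numbered 1 in DESeq2 (Kif18b) and 6 with no count filter (Aspm, Cenpf, Incenp, Kif18b, Kif4 and Ube2c), all higher in Tfh cells, and 0 to 13 with 1 library left out. Other mitosis genes called numbered 1 in DESeq2, 5 with no count filter and 0 to 8 with 1 library left out. Regulators called numbered 1 (E2f2) with no count filter and 0 to 2 with 1 library left out. DNA replication genes called numbered 1 in DESeq2, 4 with no count filter and 0 to 6 with 1 library left out. Over all genes tested, DESeq2 called 1139 of 11702 and edgeR with no count filter called 1986 of 17991. The cause of the differences between settings was not tested. The labels do not show that equal numbers pair the samples, and the deviations of same-numbered libraries from their group means had a correlation of 0.368 over the 11702 genes tested. With the replicate block, 0 members were called (smallest adjusted p = 0.181), 3 other mitosis genes (Fam83d, Smc4 and Anapc5), 1 regulator (Nfya) and 0 replication genes, with 2120 genes called in all against 994 without it. The median log2 fold change of the members was 0.40 to 0.45 with all 4 libraries and -0.01 to 1.03 with 1 left out, and the log2 ratio of their summed level was 0.38 with all and -0.01 to 0.91 with 1 left out. With library totals in place of TMM, members at least 2-fold apart numbered 22 between the non-Tfh libraries and 27 within T53.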
